A study of Saccharomyces cerevisiae with 18 samples.

Results

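LSR1, NME1, SCR1, RPR1 and TLC1 are 5 long noncoding RNAs of the budding yeast Saccharomyces cerevisiae, each the RNA core of a different ribonucleoprotein machine. They were taken by gene symbol from the 7126 features of the RNA tables, and all 5 averaged 20 or more counts across the RNA libraries, as did 6085 features in all. LSR1 is the U2 small nuclear RNA, which pairs with the branch point of introns in the spliceosome. NME1 is the RNA of RNase MRP, which cuts precursors of ribosomal RNA, and RPR1 is that of RNase P, which trims the 5′ ends of tRNA precursors. SCR1 is the scaffold of the signal recognition particle, which delivers ribosomes to the membrane of the endoplasmic reticulum, and TLC1 carries the template that telomerase copies. RNA polymerase III transcribes SCR1 and RPR1, and RNA polymerase II transcribes LSR1, NME1 and TLC1. In their mature form these RNAs mostly lack the poly(A) tail of messenger RNA, although a fraction of TLC1 is made as a polyadenylated precursor.

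The series asked how topoisomerase II (Top2, which passes a DNA duplex through another) and the HMG-box protein Hmo1 act on chromatin and transcription. At 37 °C, 60 min after a shift of log-phase cells from 28 °C, RNA was sequenced from wild type, hmo1Δ (HMO1 deleted), top2-1 (a temperature-sensitive Top2) and the strain with both mutations, hmo1Δ;top2-1, called the double mutant here. A further wild-type library came from cells at 28 °C that were arrested in G1 and released into S phase for 15 min, per the sample's own label, while the growth protocol attached to it describes the shift to 37 °C. Histone H3 ChIP-seq covered wild type and top2-1;top1Δ (which also lacks topoisomerase I), both strains carrying either a control plasmid or one that expresses the Escherichia coli topoisomerase TopA, after 2 h 15 min at 37 °C. Hmo1 ChIP-seq covered a tagged strain with the control plasmid and a tagged top2-1;top1Δ strain with TopA, both likewise after 2 h 15 min at 37 °C. Top2 ChIA-PET covered wild type at 28 °C, labelled as log-phase cells, while the growth protocol attached to that library describes arrest in G1 with alpha-factor and 15 min of growth after release. The title of the Hmo1 control library adds top2-1 and top1 to a genotype field that names only the tag, so its genotype is not certain.

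Each group held 1 library, so no spread between replicates exists, no p-value is given, and every interval is a 95% interval of counting error alone. The RNA libraries held 4752471 counts (wild type, 37 °C), 7096283 (hmo1Δ), 5591118 (top2-1), 9274003 (double mutant) and 14770300 (wild type, 28 °C). HMO1 had 0 counts in hmo1Δ and in the double mutant against 1152 in wild type at 37 °C, which matches the labels. The marker gene TRP1 also had 0 counts in those libraries against 152, so the strains with and without HMO1 differed at more than that locus. As whole cultures were measured, fewer cells that make an RNA and less of it per cell cannot be told apart.

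In the 28 °C wild-type library the 5 RNAs made up 13.3% of all counts, and in the 37 °C libraries between 0.0319% and 0.0494%. SCR1 led at 28 °C with 1652651 counts, which were 11.2% of the library, and it had the highest TPM (a length-scaled level whose sum is the same in every library) of all features. In the 37 °C libraries SCR1 had 555 counts in wild type, 1493 in hmo1Δ, 1022 in top2-1 and 1185 in the double mutant. LSR1 had 259799 counts at 28 °C, then 726 in wild type, 1780 in hmo1Δ, 909 in top2-1 and 1462 in the double mutant. Every 37 °C library thus lay far under the 28 °C library for these abundant RNAs.

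RPR1 had 39516 counts at 28 °C, against 60.0 in wild type, 37.0 in hmo1Δ, 191 in top2-1 and 102 in the double mutant at 37 °C. NME1 had 8626 counts at 28 °C, against 15.0, 62.0, 48.0 and 85.0 in the same order. The wild-type value of NME1 at 37 °C, with a Poisson interval of 8.40 to 24.7 counts, is the least precise of the member values. TLC1 had 2533 counts at 28 °C, against 162 in wild type, 135 in hmo1Δ, 183 in top2-1 and 345 in the double mutant. TLC1 was the member whose 28 °C and 37 °C counts lay closest.

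**Figure D1:**
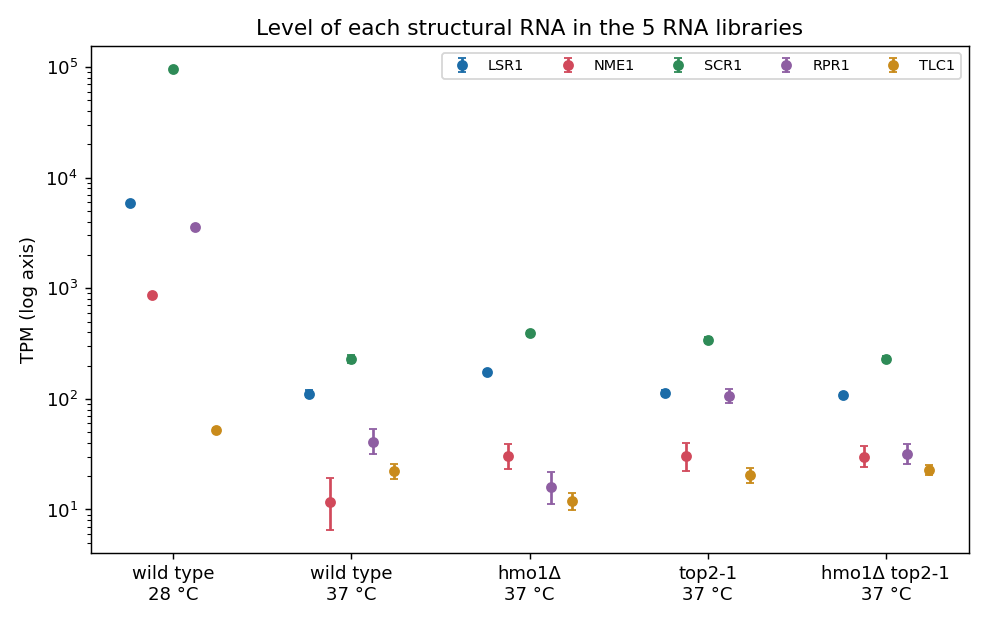
TPM of the 5 RNAs in each of the 5 RNA libraries on a log axis, with 95% Poisson intervals of counting error (1 library a group, intervals narrower than a point are hidden). SCR1 is highest in every library and the 28 °C library lies above the 37 °C libraries for all 5 RNAs, least so for TLC1 (52.0 against 11.9 to 22.7 TPM).

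Compared per length, the order in TPM at 28 °C was SCR1 (95890), LSR1 (5958), RPR1 (3574), NME1 (873) and TLC1 (52.0), and no counting intervals of neighbours overlapped. In wild type at 37 °C SCR1 (229) and LSR1 (111) stayed in front, followed by RPR1 (41.1), TLC1 (22.1) and NME1 (11.8), of which the last pair overlapped. In hmo1Δ the order was SCR1 (392), LSR1 (175), NME1 (30.4), RPR1 (16.0) and TLC1 (11.9), with the last pair overlapping. In top2-1 RPR1 (106) reached the level of LSR1 (113), with overlapping intervals, behind SCR1 (342) and ahead of NME1 (30.3) and TLC1 (20.4), which overlapped. In the double mutant SCR1 (229) and LSR1 (108) led, and RPR1 (31.9), NME1 (30.1) and TLC1 (22.7) each overlapped the next in order. RPR1 thus ranged at 37 °C from level with LSR1 in top2-1 to level with TLC1 in hmo1Δ. TPM of short RNAs depends on the effective length that the quantification assigned, which was 95.2 bases under the annotated length at 28 °C and 121 to 137 under it at 37 °C.

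The 28 °C library differed from the wild-type 37 °C library in every member by more than counting error. On the log2 scale of TMM-scaled counts (CPM, each count relative to the scaled library size), 28 °C over 37 °C was 10.81 for SCR1 (10.69 to 10.93, 1791-fold), 8.60 for RPR1 (8.27 to 9.02) and 8.31 for NME1 (7.72 to 9.28). LSR1 was at 7.75 (7.65 to 7.86) and TLC1 at 3.23 (3.01 to 3.48, 9.36-fold). All 5 members passed 2-fold upward at 28 °C, while 17.8% of the 6085 features did so upward and 14.5% downward. Over the 8 settings of scaling, prior count and filter NME1 ranged from 6.10 to 8.40 and TLC1 from 1.20 to 3.25, and no member changed sign. With library totals 408 features were higher and 2734 lower at 28 °C, in place of 1086 and 884, and with TPM 216 and 4973.

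Other RNA classes that mostly lack a poly(A) tail moved with the members. In the 28 °C library the 76 small nucleolar RNAs held 5.89% of counts against 0.0142% to 0.0304% at 37 °C. The 276 tRNA genes summed to 26033 counts against 0 to 2, and the 54 mitochondrial features to 1.02% against 0.00621% to 0.0126%. All 6 spliceosomal small nuclear RNAs, LSR1 included, were at least 2-fold higher at 28 °C, with a list median of 8.26 on the log2 scale against 0.02 over all features. With SNR6 and SNR7-L, at 0 counts in wild type at 37 °C, set to their bound (3 counts in that library), the median was 7.75. SNR6, SNR7-L and SNR14 had 5.05 counts or fewer in every 37 °C library and passed the count filter only through 28 °C. Their upward call was thus fixed by the filter and adds nothing to the list count. Coding genes held 77.6% of counts at 28 °C and between 97.9% and 98.1% at 37 °C. The 12 nuclear ribosomal RNA features went the other way, with 2 counts at 28 °C and 971 to 2954 at 37 °C. The protocol describes ribosomal RNA removal and then poly(A) selection for all RNA libraries alike. Temperature, cell cycle stage and library make-up differ together between these groups, so their parts in the difference cannot be told apart.

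The make-up of the member counts differed as well. SCR1 was 84.2% of the 5 RNAs' counts at 28 °C and 36.6% to 43.4% at 37 °C. LSR1 was 13.2% at 28 °C and 38.6% to 50.7% at 37 °C, and TLC1 was 0.129% against 3.86% to 10.9%. RPR1 made up 2.01% at 28 °C, 3.95% in wild type at 37 °C, 1.05% in hmo1Δ, 8.12% in top2-1 and 3.21% in the double mutant. The pair transcribed by RNA polymerase III did not move together. SCR1 had 41.8 counts for each count of RPR1 at 28 °C, 9.25 in wild type at 37 °C, 40.4 in hmo1Δ, 5.35 in top2-1 and 11.6 in the double mutant. Such ratios within a library do not depend on the scaling between libraries.

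**Figure D2:**
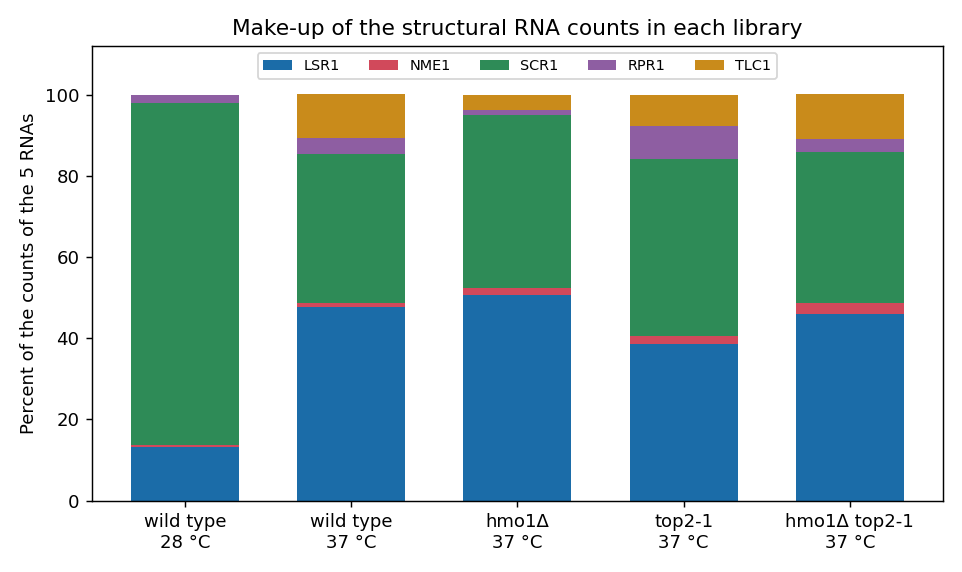
Share of each RNA in the summed counts of the 5 RNAs, in percent, for each RNA library. SCR1 (green) fills 84.2% of the bar at 28 °C and 36.6% to 43.4% at 37 °C, and RPR1 (purple) is widest in top2-1 at 8.12%.

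Among the 37 °C libraries, the deletion of HMO1 with Top2 active went with higher SCR1, LSR1 and NME1 and lower RPR1 and TLC1. Over wild type, SCR1 was at 1.10 on the log2 scale (0.96 to 1.25), NME1 at 1.63 (0.89 to 2.64) and LSR1 at 0.97 (0.84 to 1.10). RPR1 was at -0.99 (-1.65 to -0.41) and TLC1 at -0.58 (-0.93 to -0.25). None of the 5 counting intervals held 0. SCR1 and NME1 were at least 2-fold higher, and LSR1 and RPR1 lay just short of that fold, but RPR1 was past it, lower, in 6 of the 9 settings. Over all features, 7.13% passed 2-fold upward and 5.19% downward, and the median was 0.00 against 0.97 for the members. Other classes that mostly lack a poly(A) tail also varied at 37 °C. In wild type, hmo1Δ, top2-1 and the double mutant, mitochondrial features held 0.00700%, 0.0126%, 0.00957% and 0.00621% of counts. SCR1 held 0.0117%, 0.0210%, 0.0183% and 0.0128%. Small nucleolar RNAs held 0.0142%, 0.0169%, 0.0267% and 0.0304%, a different course. The part of library make-up in the member ratios was not tested.

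The calls at 2-fold depended on the setting. With TMM factors from nuclear coding genes only, a prior count of 0.5, no filter or TMM over the 4 libraries at 37 °C, 2 members were higher and 1, RPR1, lower. Library totals moved the median of all features in hmo1Δ to -0.25 and TPM moved it to -0.31. With library totals SCR1 was at 0.85 and RPR1 at -1.24, so that 1 member was higher and 1 lower, and over all features 279 were higher and 585 lower in place of 434 and 316. With TPM SCR1 was at 0.77 and RPR1 at -1.31, and 244 features were higher and 640 lower. Every member kept its sign in all 9 settings.

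Inactivation of Top2 alone went with higher RPR1, NME1 and SCR1. Over wild type, RPR1 was at 1.38 (0.98 to 1.85) and NME1 at 1.33 (0.55 to 2.35), which were the 2 members at least 2-fold higher, and SCR1 was at 0.61 (0.46 to 0.77). For LSR1 (0.06, -0.08 to 0.20) and TLC1 (-0.09, -0.40 to 0.22) the intervals held 0. Few features lay as far out, with 1.53% past 2-fold upward and 0.855% downward. RPR1 was higher than 99.3% of the 6085 ratios and NME1 higher than 99.2%, NME1 from only 15.0 wild-type counts. These calls held in all 9 settings.

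In the double mutant against wild type, NME1 alone passed 2-fold, at 1.52 (0.80 to 2.50). SCR1 was at 0.20 (0.05 to 0.34), TLC1 at 0.19 (-0.08 to 0.47), LSR1 at 0.11 (-0.02 to 0.24) and RPR1 at -0.13 (-0.61 to 0.35). Thus NME1 was 2.52-fold to 3.10-fold higher than wild type in all 3 mutants, while the other members lay within 1.15-fold of wild type when both mutations were present. Over all features 4.70% passed 2-fold upward and 3.57% downward. The higher and lower counts were 286 and 217, 245 and 258 with library totals, and 174 and 310 with TPM. With TPM LSR1 was at -0.05, and SCR1 ranged from 0.00 to 0.20 over the settings. All 3 comparisons share the wild-type library.

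Set against top2-1, the double mutant had less RPR1 and less SCR1. RPR1 was at -1.51 (-1.90 to -1.18) and was the only member past 2-fold, lower in all 9 settings, and 1.53% of features had a ratio as low or lower. SCR1 was at -0.42 (-0.54 to -0.30) and TLC1 at 0.28 (0.02 to 0.55). LSR1 (0.05, -0.07 to 0.18) and NME1 (0.19, -0.33 to 0.74) had intervals that held 0 and changed sign between settings. Over all features 3.76% passed 2-fold upward and 3.75% downward. Those were 229 and 228 features, against 181 and 281 with library totals and 145 and 279 with TPM.

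Set against hmo1Δ, the double mutant had less SCR1 and LSR1 and more RPR1 and TLC1, with no member past 2-fold. SCR1 was at -0.90 (-1.02 to -0.80), LSR1 at -0.86 (-0.96 to -0.76), RPR1 at 0.86 (0.33 to 1.47) and TLC1 at 0.77 (0.49 to 1.08). NME1, at -0.11 (-0.61 to 0.38), had an interval that held 0. Over all features 1.73% passed 2-fold upward and 2.48% downward, so that SCR1 and LSR1, though short of the fold, lay among the lowest 3.65% of ratios. With library totals RPR1 passed 2-fold at 1.04, and 198 features were higher and 100 lower in place of 105 and 151. With TPM 150 were higher and 101 lower.

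**Figure D3:**
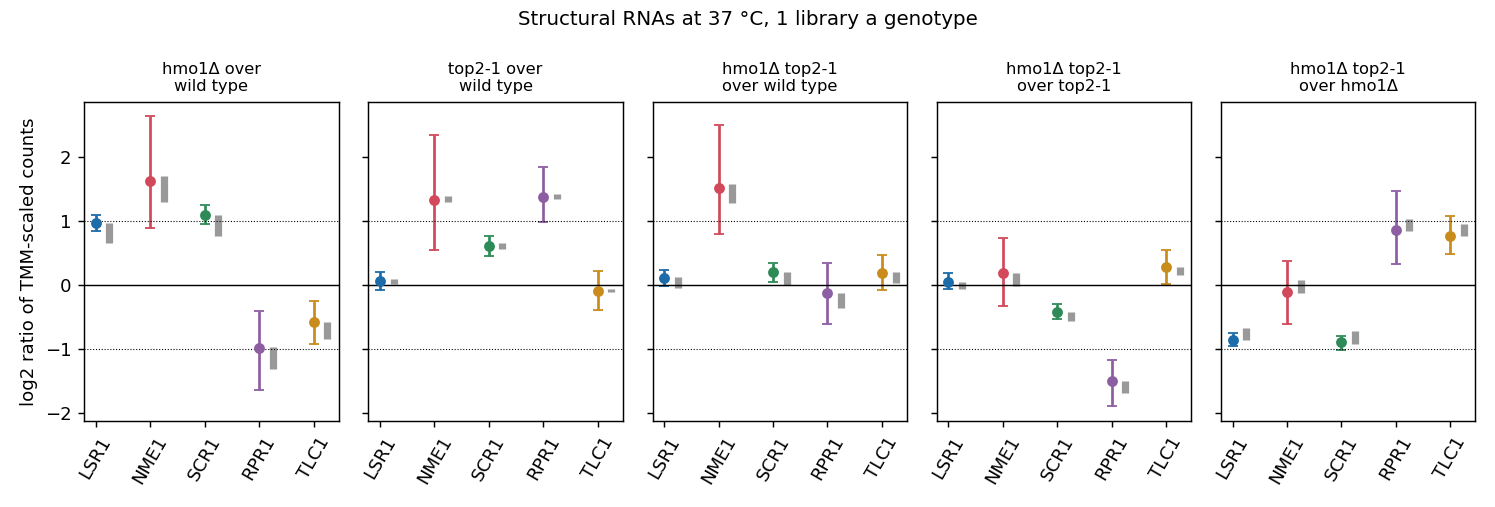
Log2 ratio of TMM-scaled counts of each RNA in 5 comparisons at 37 °C, 1 library a genotype. Points carry 95% intervals of counting error, grey bars give the range over all settings of scaling and filter, and dotted lines mark 2-fold. RPR1 is low in hmo1Δ over wild type and the double mutant over top2-1 (-0.99 and -1.51), high in top2-1 over wild type and the double mutant over hmo1Δ (1.38 and 0.86) and near 0 in the double mutant over wild type (-0.13), and SCR1 changes side between the first and the fourth panel (1.10 and -0.42).

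The loss of Hmo1 thus went with different ratios with and without active Top2. For RPR1 the ratio had the same sign in both backgrounds, and the value in top2-1 less that with Top2 active was -0.52 with a counting standard error of 0.35. For SCR1 this difference was -1.52 (counting standard error 0.09), for NME1 -1.45 (0.49), for LSR1 -0.91 (0.09) and for TLC1 0.86 (0.21). Over the 9 settings the difference ranged from -1.52 to -1.34 for SCR1 and from -0.92 to -0.72 for LSR1. These standard errors hold counting error alone, and the difference could not be tested against replicates. SCR1 and LSR1 lay close to each other over the 4 libraries at 37 °C, at a Euclidean distance of 0.43 in centred log2 CPM, against 2.09 for SCR1 and RPR1.

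The features most like each member over the 5 libraries, by Euclidean distance in log2 CPM centred over the libraries, were mostly other noncoding RNAs. For NME1 they were the small nucleolar RNAs SNR86 (distance 0.55), SNR70 (0.70) and SNR84 (0.72), with 28905, 7645 and 12274 counts at 28 °C and 13.0 to 354 at 37 °C. For RPR1 they were SNR6 (the U6 small nuclear RNA, 0.81), SNR85 (0.92) and the frame YJR029W (0.93), of which SNR6 and YJR029W had 0 counts in 3 of the 37 °C libraries. For SCR1 they were SNR190 (0.72), the mitochondrial AI1 (0.72) and the mitochondrial tQ(UUG)Q (0.85). In the 37 °C libraries SNR190 had 2.00 to 6.00 counts, AI1 10.0 to 34.2 and tQ(UUG)Q 0. LSR1 had YDR149C (0.59), tI(GAU)Q (0.80) and tG(CCC)O (0.82), all with under 2 counts in every 37 °C library. TLC1 differed, with 3 coding features, HCM1 (a forkhead transcription factor, 0.32), RPL41A (a ribosomal protein, 0.40) and the Ty frame YGR109W-B (0.41). HCM1 had 1856 counts at 28 °C, 135 in wild type, 131 in hmo1Δ, 164 in top2-1 and 269 in the double mutant at 37 °C. RPL41A had only 6.00 to 13.0 counts in the 37 °C libraries. With 5 libraries, 1 of which stands far apart, such likeness mainly describes the 28 °C ratio. Features at or near 0 counts at 37 °C passed the filter through 28 °C, and the prior count sets their 37 °C values. Their place among the most alike rests on these rules.

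Messenger RNAs of the proteins that bind these RNAs mostly stayed within 2-fold of wild type at 37 °C. Of 8 genes of the signal recognition particle and its receptor, 0 passed 2-fold in any of the 6 comparisons, and the list median in hmo1Δ was -0.21. Their largest ratios in hmo1Δ were SRP21 (-0.58), SRP72 (-0.46) and SRP68 (-0.30), particle subunits, beside the 1.10 of SCR1. With library totals 1 of the 8 passed it in the double mutant over hmo1Δ and 4 at 28 °C, and with TPM all 8 did at 28 °C. Of 10 RNA polymerase III factors 0 passed 2-fold in any comparison. With library totals 1 of the 10 passed it in hmo1Δ and 3 at 28 °C, and with TPM 1 and all 10. In hmo1Δ the subunits of TFIIIC, which binds the internal promoters of such genes, included TFC6 at -0.81, TFC1 at 0.50 and TFC4 at -0.48, with a list median of 0.09.

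Of 11 RNase P and RNase MRP proteins, 1 was at least 2-fold lower in hmo1Δ, POP8 (19.0 counts against 44.0, -1.45, -2.40 to -0.73), where 5.19% of all features were lower, and the list median was -0.44 against 0.00 for all features. RPP1 (-0.81) and SNM1 (-0.74, a subunit particular to RNase MRP) followed. By TPM, RPP1 (39.2 in hmo1Δ, 86.2 in wild type) and SNM1 (16.0 and 33.9) also passed 2-fold. In the double mutant against hmo1Δ, POP6 (1.25) and POP8 (1.17) were at least 2-fold higher, as were 1.73% of all features, POP4 was at 0.80 and the median was 0.38. In top2-1, where RPR1 was at 1.38, the list had 0 members past 2-fold and a median of 0.00, led by RPR2 (0.38), RMP1 (0.32) and POP3 (-0.25). At 28 °C 1 of the 11, RMP1 (-1.30), was lower, where 14.5% of all features were. With TPM, where the median of all features was -1.90, the whole list passed 2-fold lower, POP1 (16.6 against 45.1 TPM) among them.

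Of 14 U2 snRNP proteins, 0 passed 2-fold in hmo1Δ or in top2-1. In hmo1Δ MSL1 (U2B″, which binds U2 directly) was at 0.70, RSE1 at -0.52 and PRP21 at 0.43. RDS3, a subunit of the SF3b complex, was at least 2-fold higher in the double mutant over wild type (1.02) and over top2-1 (1.16). The former call was lost with library totals, DESeq2 size factors and TPM, and the latter with TPM. At 28 °C 1 of the 14 was higher (MSL1, 1.33) and 3 were lower (PRP11 -1.88, IST3 -1.87, HSH49 -1.45), against 17.8% and 14.5% of all features. The list median was -0.52, while LSR1 was at 7.75. By TPM, MSL1 was instead lower at 28 °C (11.1 against 20.0 at 37 °C). Of 7 Sm core proteins, which ring most small nuclear RNAs and TLC1, only SMD3 (-1.07 at 28 °C) passed 2-fold in any comparison. With library totals 1 of the 7 did so in hmo1Δ, 2 in the double mutant over hmo1Δ and 5 at 28 °C, and with TPM 1 did in hmo1Δ and all 7 at 28 °C. Of the other spliceosomal RNAs, SNR19 (U1) had 321 counts in wild type at 37 °C, 569 in hmo1Δ, 594 in top2-1 and 477 in the double mutant. SNR19 was at 0.50 in hmo1Δ (0.30 to 0.70), the same side as LSR1, while the list median there was 0.00. The pair parted elsewhere, with SNR19 at 0.62 and LSR1 at 0.06 in top2-1. In the double mutant over top2-1 SNR19 was at -0.94 and LSR1 at 0.05. In top2-1 3 of the 6 spliceosomal RNAs passed 2-fold upward, where 1.53% of all features did. Of these only SNR7-S was above the floor of 3 counts, at 1.18 (0.51 to 2.00), with 61.7 counts against 22.0. SNR6 (3.00 counts) and SNR7-L (2.29) had 0 counts in wild type, and their intervals, with low ends of -1.54 and -2.68, held 0. Both passed the filter only through their 28 °C counts, so 3 of 6 cannot be read against that share. SNR7-S and SNR7-L are forms of the U5 RNA that share most of their sequence, so their counts could be split either way.

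Of 6 telomerase and Ku proteins, YKU80 (a subunit of the Ku end-binding complex, which also binds TLC1) was at least 2-fold lower in hmo1Δ, at -1.11 (-1.49 to -0.76), against 5.19% of all features. EST2, the catalytic subunit, was at 0.82 in top2-1 and -0.25 in hmo1Δ, and 0 of 6 passed 2-fold in top2-1 or the double mutant. At 28 °C 1 of the 6 was higher (CDC13, 1.71) and 2 were lower (YKU70 -2.67, EST3 -1.26), against 17.8% and 14.5% of all features. Of 5 genes for TLC1 trafficking and cap trimethylation 0 passed 2-fold at 37 °C, with the importin KAP122 at -0.44, the cap methylase TGS1 at 0.20 and MTR10 at -0.12 in hmo1Δ. At 28 °C 1 of the 5, KAP122 (1.47), was higher, where 17.8% of all features were. By TPM, KAP122 (13.2 against 18.8 at 37 °C) and CDC13 (11.7 against 14.0) were instead lower at 28 °C.

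Of 24 genes of noncoding RNA 3′ end maturation and decay, 2 were at least 2-fold lower in hmo1Δ and 0 higher, against 5.19% and 7.13% of all features. With library totals and with TPM 4 of the 24 passed 2-fold. The pair were LHP1 (the yeast La protein, which binds the ends of new RNA polymerase III transcripts) at -1.28, with 473 counts against 918, and MTR4 (a helicase of the nuclear exosome) at -1.05. LSM8, a subunit of the ring that binds U6, was at -0.92 in hmo1Δ and passed 2-fold in the double mutant over wild type (-1.10) and over top2-1 (-1.25). In top2-1 0 of 24 passed 2-fold, with LSM5 at 0.64, LSM7 at 0.57 and NRD1 at -0.50. At 28 °C 5 were higher (SEN1 1.41, DIS3 1.38, MTR4 1.26, NRD1 1.18, LSM5 1.05) and 3 lower (LSM2 -1.47, LSM4 -1.19, LSM7 -1.04). Of all features 17.8% were higher and 14.5% lower there, and the list median was 0.40. By TPM, those 5 were instead lower at 28 °C, among them SEN1 (19.5 against 28.6 at 37 °C), MTR4 (30.7 against 50.3) and LSM5 (65.6 against 157). The 3 lower genes stayed lower by TPM, so the direction of the 5 depended on the scaling. The lists' medians were read only beside the median of all features, which lay between 0.00 and 0.02.

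No annotated gene of the R64 assembly overlapped a member. The nearest genes on either side went with the members in some comparisons and against them in others. TIM9, a mitochondrial import gene that ends 192 bp from the end of RPR1 on the opposite strand, was at -0.85 in hmo1Δ, 0.65 in top2-1 and 1.15 in the double mutant over hmo1Δ, where RPR1 was at -0.99, 1.38 and 0.86. TIM9 and RPR1 were both lower in the double mutant over top2-1 (-0.34 and -1.51). They had opposite signs in the double mutant over wild type (0.30 and -0.13) and at 28 °C (-0.98 and 8.60). PXP1, 581 bp before the start of RPR1, was at 0.01 in hmo1Δ, 0.37 in top2-1 and -0.02 in the double mutant over hmo1Δ. YER137C, 167 bp before the start of SCR1 on the opposite strand, was at -0.62 in hmo1Δ on 23.0 counts and 0.80 in top2-1. COQ21 and SWC5 beside LSR1 were at 0.15 and 0.08 in hmo1Δ, SSN8 beside NME1 at 0.26 and CSG2 beside TLC1 at 0.38. The small nucleolar RNAs SNR66 (163 bp after NME1) and SNR161 (241 bp before TLC1) had 11.0 counts or fewer at 37 °C, against 2499 and 1925 at 28 °C. Both were thus higher at 28 °C, as NME1 and TLC1 were.

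Hmo1 is an HMG-box protein known from ribosomal DNA and ribosomal protein gene promoters, and its deposited peaks lay over or beside every member in at least 1 list. In the R64 assembly SCR1 is at chrV:441987-442508 (plus strand), and in the control library a peak at chrV:441612-442776 covered all of it. Its score of 2.36 ranked 20 of 1511 peaks, on the authors' scale, which the sources used here do not define. RPR1, at chrV:117667-118035 (minus strand), lay inside the peak chrV:116527-119147, with a score of 1.88 and rank 138. LSR1, at chrII:680688-681862 (minus strand), lay inside the peak chrII:679115-682652, with a score of 1.58 and rank 396. TLC1, at chrII:307587-308887 (plus strand), had a peak in its window only upstream, at chrII:306517-307223, whose end is at -364 bp from its start, with a score of 1.17 and rank 1423. A further peak, chrII:309148-313005, began 261 bp past its end, with a score of 1.22 and rank 1203, so that peaks flanked TLC1 and none overlapped it. NME1, at chrXIV:585587-585926 (plus strand), had no peak in its window and its nearest was 1388 bp away. Thus 4 of 5 members had a peak in the gene or in the 500 bp before its start, where 55.2% of the 6431 nuclear genes did, a share that is common in this list. Among the members SCR1 and RPR1 stood in the top 9.13% of the list by score.

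In the tagged top2-1;top1Δ strain with TopA all 5 members had a peak in the window, against 59.9% of genes. SCR1 had a score of 1.37 (rank 81 of 1933), RPR1 1.32 (rank 138), NME1 1.17 (rank 1010) and TLC1 1.15 (rank 1430). The TLC1 peak again lay before its start, and a further one, chrII:309108-309404 (score 1.25, rank 299), began 221 bp past its end. LSR1 had a peak over the 3′ part of the gene (score 1.31, rank 153), which with its 5′ end left bare covered 64.3% of the gene, and a further peak that ends at -382 bp from its start (score 1.31, rank 151). The lists differ in length and in score range (1.10 to 2.82 and 1.09 to 1.78), so their ranks and scores cannot show whether binding changed. The U6 gene SNR6, also transcribed by RNA polymerase III, had a peak in the control list (score 1.84, rank 161) and none in the other, and SNR52, a further RNA polymerase III gene, had none in either list. Among small nuclear RNA genes transcribed by RNA polymerase II, SNR7-L had none in either list. SNR14 (score 1.25, rank 1106, and 1.18, rank 880 with TopA) and SNR19 (1.21, rank 1273, and 1.20, rank 675) had a peak in both.

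With the 5 members pooled, H3 nucleosome summits were fewer per kb than over coding genes in each list. This did not hold for each member, as LSR1 held 4 in 1175 bp in top2-1;top1Δ with the control plasmid. In wild type with the control plasmid 0 summits fell inside the 5 genes, whose length is 3707 bp in all, against 2.40 per kb in coding genes. In top2-1;top1Δ with the control plasmid 5 fell inside, 4 in LSR1 and 1 in TLC1, and in wild type with TopA 5 fell inside, 2 in LSR1 and 3 in TLC1. Both counts come to 1.35 per kb of the members, against 2.34 and 2.71 per kb in coding genes. In top2-1;top1Δ with TopA 0 fell inside, against 1.08 per kb in coding genes. NME1, SCR1 and RPR1 held 0 summits in all 4 lists, and no member had a summit in the 250 bp before its start in any list, where 2.93% to 7.31% of coding genes had one.

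The share of all nuclear genes without a summit was 26.9% in wild type control, 23.4% in top2-1;top1Δ control, 21.4% in wild type with TopA and 57.6% in top2-1;top1Δ with TopA. Length matters for this count. Of 891 genes of 300 to 600 bp, the range of NME1, SCR1 and RPR1, between 42.6% and 71.2% had no summit, so their lack of one is common. Of 1363 genes of 1000 to 1500 bp, the range of LSR1 and TLC1, 11.1% had none in the wild-type control list and 12.0%, 5.65% and 54.1% in the others. The stretch between the summits that flank SCR1 was 3229 bp in wild type control, 3632 bp in top2-1;top1Δ control and 3218 bp in wild type with TopA, where the median spacing was 268, 222 and 241 bp. That stretch was among the longest 1.17%, 1.12% and 0.679% of spacings. Around NME1 it was 4182, 2864 and 2127 bp, and around RPR1 1888, 1323 and 2143 bp, the latter among the longest 5.09%, 10.1% and 2.43%. Around TLC1 it was 5745 bp in wild type control, among the longest 0.131%. A stretch that spans a whole gene without a summit is long by construction, so these shares describe the loci and test nothing.

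The summits inside LSR1 in top2-1;top1Δ lay 135, 300, 565 and 1093 bp after its start, with signals of 0.983, 1.07, 0.840 and 0.986 times the library median. In wild type with TopA those inside LSR1 lay 195 and 300 bp after its start, at 0.927 and 1.08 times the median. In TLC1 the summit in top2-1;top1Δ lay at 241 bp (0.975 times the median), and those in wild type with TopA at 144, 786 and 940 bp (0.951, 0.922 and 0.982 times). These summits were thus of ordinary height for their lists. The lowest signal listed was 1.00 in both wild-type and 1.40 in both top2-1;top1Δ lists. Few wild-type summits lay lower than 1.41, which was at percentile 5.41 in the control list and 1.86 with TopA. A count of 0 says only that no summit was listed. In top2-1;top1Δ with TopA, the list with the fewest summits (10841, against 21862 to 25035), the bare stretches ran to 39215 bp around NME1, 23085 bp around TLC1 and 22748 bp around SCR1.

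**Figure D4:**
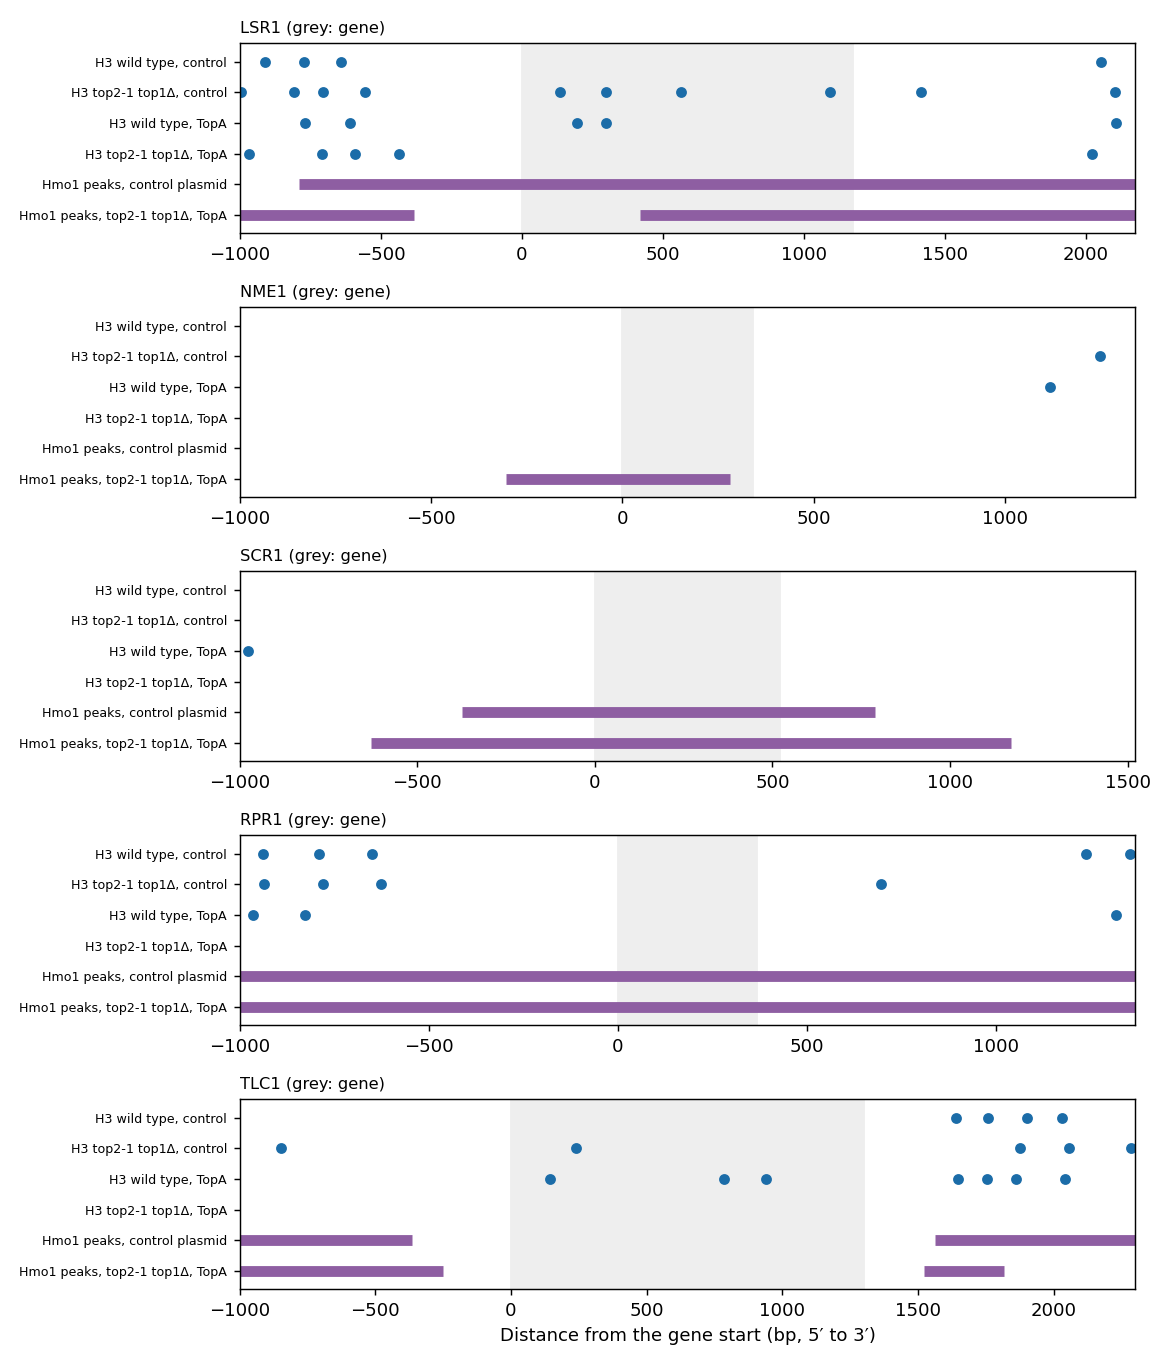
H3 nucleosome summits (points) and Hmo1 peaks (bars) from 1000 bp before the start to 1000 bp after the end of each gene, by distance from the start in bp, 5′ to 3′, with the gene in grey. NME1, SCR1 and RPR1 hold 0 summits in all 4 H3 lists, and the Hmo1 bars span SCR1 and RPR1 fully in both lists, and lie on either side of TLC1 but not over it.

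Top2 ChIA-PET, which ligates DNA fragments recovered together with Top2, placed few anchors at the members. Of 1887 clusters, only 1 had an anchor in a member's window, and that anchor, chrV:441438-441989, reached the first 3 bp of SCR1. That cluster had 2 tags, the least the list holds, and its anchors were 1222 bp apart. An anchor lay in the gene or the 500 bp before it for 1 of 5 members and for 41.6% of the nuclear genes. The nearest anchor was 591 bp from RPR1, 1071 bp from TLC1, 1400 bp from LSR1 and 8280 bp from NME1. Within 2 kb of RPR1 there were 6 anchors, of which 1 belongs to the cluster with the most tags in the list, 25. That anchor, chrV:115944-117074, covers the URA3 gene, which ends 696 bp from the 3′ end of RPR1. The build of these clusters was not given in the sources used here, and they were read against R64.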

How the data were processed

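RNA levels of 5 noncoding RNAs were read from 5 RNA libraries, and their loci from 4 H3, 2 Hmo1 and 1 Top2 libraries. The 6 ChIP inputs have no file here. The deposited RNA tables hold RSEM expected counts and TPM per feature, after STAR alignment to R64, per the submitters' processing notes, with versions not given in the sources used here. The H3 lists hold a summit signal and a fuzziness score per nucleosome, per the file headers. The Hmo1 lists hold a score per peak, deposited with no scale, and the Top2 list holds deposited counts of tags per cluster. Callers were not given in the sources used here.

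Expected counts were rounded, scaled with TMM factors (edgeR 4.0.16) from the 6085 features with a mean of at least 20, and turned into log2 CPM with a prior count of 2. A difference of at least 2-fold is a rule of size, not a test. Ratio intervals are exact Clopper-Pearson, and level intervals exact Poisson, both at 95%. Alternatives used library totals, DESeq2 1.42.0 size factors and others. Ratios and intervals were checked on simulated Poisson counts. That is the counting model the intervals assume, so the check does not cover variation between replicates. The genes, the 9 lists of partner genes and all rules were chosen with earlier results of these data known. Genes named were the 5 RNAs, the 3 with the largest ratio in a list and comparison, the 3 most alike, and neighbours. URA3, SNR7-S and the members of 28 °C counts outside this rule were named after their values were seen. Member symbols were matched to RefSeq R64 noncoding genes, and REX1 by a synonym. Of 7126 features 6162 matched.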

Additional observations from a re-analysis of the deposited data

Results flagged for a closer look

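The effect of losing Hmo1 on SCR1 went opposite ways with Top2 active (1.10 on the log2 scale) and in top2-1 (-0.42), a difference of -1.52, and both counting intervals lay clear of 0. Seen from the other side, top2-1 went with higher SCR1 when Hmo1 was present (0.61) and with lower SCR1 when it was absent (-0.90), which is the same difference of -1.52. For TLC1 the loss of Hmo1 gave -0.58 with Top2 active and 0.28 in top2-1, a difference of 0.86. With 1 library a group these differences were not tested, and the part of the library make-up in them was not tested either.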

How the results depend on the processing

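Of 235 member ratios under an alternative, 213 stayed inside the counting interval and 22 moved outside it, and 0 ratios past 2-fold changed sign. Of 73 counts and shares 60 stayed the same, by a margin of 1.5 times for counts. Counts of members past 2-fold were summed over both directions, so a change between higher and lower still counted as the same. In hmo1Δ over wild type, 2 higher and 0 lower became 1 higher and 1 lower with library totals, and that counted as the same. With library totals 1 member, RPR1, was past 2-fold in the double mutant over hmo1Δ in place of 0. As a share of TPM the members were 10.6% at 28 °C and, at 37 °C, 0.0416% in wild type, 0.0625% in hmo1Δ, 0.0611% in top2-1 and 0.0421% in the double mutant. Without snoRNAs and mitochondrial features the 28 °C share was 14.3%. Leaving out fuzzy nucleosomes left 3 summits inside the members in top2-1;top1Δ control and 3 in wild type with TopA. With most of the Hmo1 peak required in the window, 1 member kept one in the control list and 2 in the TopA list, and with peaks over the median score 3 did in the TopA list. With Top2 clusters above the median tag count 0 members had an anchor. Of 216 list counts, also summed over both directions, 182 stayed the same. No paired analysis was possible because each group holds 1 library, and no replicate could be left out. Promoter motifs were not run. Depth limits NME1 (15.0 to 85.0 counts at 37 °C) and RPR1 (37.0 to 191) most.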
